A study of Mus musculus with 56 samples.

Results

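The GIMAP genes (*Gimap1*, *Gimap3*, *Gimap4*, *Gimap5*, *Gimap6*, *Gimap7*, *Gimap8* and *Gimap9*) were followed in the RNA-Seq profiles of fetus/graft-specific CD8+ T cells (TFGS). They were chosen by name, as the rows whose Ensembl identifier maps to these mouse symbols, which gave 8 of the 55359 genes in the table. The rule uses no measured value. TFGS are the endogenous CD8+ T cells of C57BL/6 females that bind OVA:Kb tetramer, and they were sorted from spleen and lymph nodes at 200 cells per library. The study asked how pregnancy acts on such cells when they are naive and when they are memory cells left by a rejected graft. The females were 8 to 12 weeks old C57BL/6 mice when obtained, and skin donors and fathers were 2W-OVA.BALB/c mice, in which a transgene expresses the model antigen 2W-OVA throughout the body. Naive mice (3 samples) had neither graft nor pregnancy. Sensitized mice (4 samples) had been grafted with donor skin at least 30 days earlier. Naive mice after semi-allogeneic pregnancy, taken at post-partum day 0 to 3, gave the PD1- subset N+P C1 and the PD1+CD73+ subset N+P C5 (3 samples each). Mice that were first sensitized and then pregnant gave the PD1- subset S+P C4 (6 samples), the PD1+CD73+ subset S+P C5 (6 samples) and the PD1+CD73- subset S+P C7 (5 samples). In all groups the T cells themselves carried no transgene.

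GIMAP proteins (GTPases of the immunity-associated protein family) are small guanine-nucleotide-binding proteins found mostly in lymphocytes, where several of them sit on membranes of mitochondria, lysosomes or the endoplasmic reticulum. Their genes lie side by side in a single cluster in mammals. Loss of *Gimap5* in mice and rats causes a shortage of T cells, and loss of *Gimap1* removes mature lymphocytes, so the family is known mainly for keeping resting lymphocytes alive.

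Libraries held 6636532 to 32625243 counts (median 17299849), and the 30 samples used here, once technical libraries were summed, held 15547934 to 54809406. A library listed with identical counts in Naive replicate 1 and S+P C4 replicate 1 was used in neither, and near-identical libraries of S+P C7 replicates 1 and 2 were averaged into 1 sample. Replicate 3 of S+P C7 and replicates 2 and 3 of S+P C4 stood apart, with 7436 to 8002 genes detected against 12383 to 26805 in the other samples, and results that rest on them are given with and without them. All 7 CD8 T cell markers looked at (*Cd3d*, *Cd3e*, *Cd3g*, *Cd8a*, *Cd8b1*, *Lck*, *Thy1*) were present in every sample, summing to 4915 to 8148 CPM, that is read counts scaled to library size. *Cd4* never passed 3.71 CPM, and the list of 3 CD4 T cell markers summed to at most 28.55 CPM, in a Sensitized sample. B cell markers summed to at most 62.77 CPM, in an N+P C5 sample, and myeloid markers to at most 332 CPM, in a Sensitized sample. The part of these in GIMAP levels was not tested. S+P C7 replicate 3 also held 16510 CPM of erythroid markers and 810 CPM of NK cell markers, and the part of either in its GIMAP levels was not tested.

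The cluster spans chr6:48624143-48747826 on GRCm39, in the order *Gimap8*, *Gimap9*, *Gimap4*, *Gimap6*, *Gimap7*, *Gimap1*, *Gimap5*, *Gimap3*. *Gimap6* and *Gimap3* are read from the minus strand and the other 6 from the plus strand. Each coding sequence holds the P-loop (Walker A), the loop that grips the phosphates of GTP, and *Gimap8* holds 3 copies of it where the other members hold 1. The 10 copies are shown because they are the family's common signature and show how far its members differ. The capitals mark the codons fixed by the P-loop pattern, namely a glycine codon at the start and then glycine, lysine and serine codons at the end. The lower-case letters between them are the codons left free.

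*Gimap1* (chr6:48719486-48719509, plus strand): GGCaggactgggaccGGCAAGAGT
*Gimap3* (chr6:48742821-48742844, minus strand): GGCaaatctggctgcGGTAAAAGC
*Gimap4* (chr6:48667355-48667378, plus strand): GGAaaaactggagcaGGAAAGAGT
*Gimap5* (chr6:48729528-48729551, plus strand): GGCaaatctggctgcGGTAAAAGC
*Gimap6* (chr6:48679684-48679707, minus strand): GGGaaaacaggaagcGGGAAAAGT
*Gimap7* (chr6:48700458-48700481, plus strand): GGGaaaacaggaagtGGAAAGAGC
*Gimap8* first copy (chr6:48627190-48627213, plus strand): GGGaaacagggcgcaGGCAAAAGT
*Gimap8* second copy (chr6:48633053-48633076, plus strand): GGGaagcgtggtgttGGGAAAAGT
*Gimap8* last copy (chr6:48635680-48635703, plus strand): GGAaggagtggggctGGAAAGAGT
*Gimap9* (chr6:48654457-48654480, plus strand): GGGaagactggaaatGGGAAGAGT

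The copies of *Gimap3* and *Gimap5* are the same letter for letter, and the other 8 all differ, which leaves 9 distinct sequences. Over the whole coding sequence *Gimap3* and *Gimap5* share 87.9% of 902 aligned bases, while the next pair, *Gimap7* and *Gimap9*, shares 64.9%, and the median over all 28 pairs is 57.6%. The longest exact match between *Gimap3* and *Gimap5* transcripts is 140 bases, against a median of 13 bases over the pairs. That stretch is printed because the study kept only uniquely mapped reads, so that a pair of reads lying wholly within it could not be given to either gene. Reads of the full 150 bases are longer than the stretch, so this concerns reads shortened by trimming. The stretch is coding sequence in 1 exon of each gene, at chr6:48742615-48742754 on the minus strand for *Gimap3* and chr6:48729618-48729757 on the plus strand for *Gimap5*.

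*Gimap3* and *Gimap5* shared stretch: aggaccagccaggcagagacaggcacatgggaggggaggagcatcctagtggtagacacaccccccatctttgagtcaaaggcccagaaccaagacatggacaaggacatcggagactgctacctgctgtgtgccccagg

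Windows of 100 bases found in both genes made up 5.10% of those in the *Gimap3* coding sequence and 4.97% of those in *Gimap5*, and none of the other 6 members shared such a window with another. Levels of *Gimap3* and *Gimap5* therefore carry an uncertainty from reads that fit both, which were not kept. Exons of *Gimap1* also overlap 1335 bases of the antisense RNA *Gimap1os*, and the read-through gene *Gm28053* shares 81 bases with *Gimap7*, 198 with *Gimap1* and 153 with *Gimap5*. How the counting treated strand is not given in the sources used here, so reads of *Gimap1* and *Gimap1os* over their overlap cannot be told apart. *Gm28053* lies on the same strand as the 3 genes it overlaps, so there strand would not separate reads. *Gimap1os* itself averaged 22.7 CPM in Naive samples to 61.9 CPM in S+P C7, well under the group averages of *Gimap1*. In S+P C4, though, it was at least 36.28 CPM in every sample, while *Gimap1* had 7.39 CPM in replicate 2 and 0.298 CPM in replicate 3. *Gm28053* averaged at most 13.1 CPM in any group.

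All 8 members passed the filter on low counts and were among the 19659 genes tested. Per kilobase of exon, which allows genes of different length to be compared, the mean level over the 30 samples was highest for *Gimap4*, at 394 CPM per kb. *Gimap3* (239 CPM per kb) and *Gimap6* (224 CPM per kb) followed, then *Gimap7* at 128 and *Gimap9* at 123 CPM per kb. The order of that pair turned with the group, since *Gimap7* was below *Gimap9* in Naive (50.8 against 123.8 CPM per kb) and above it in S+P C7 (231.5 against 139.4). *Gimap1* (65.5 CPM per kb), *Gimap5* (44.0 CPM per kb) and *Gimap8* (21.0 CPM per kb) closed the order. Before division by length, *Gimap4*, *Gimap6* and *Gimap3* had means of 891, 862 and 857 CPM, and more than 99% of the tested genes had lower means (99.5%, 99.4% and 99.4%). Even *Gimap8*, the lowest, had a mean of 79.5 CPM and stood above 89.3% of tested genes.

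**Figure D1:**
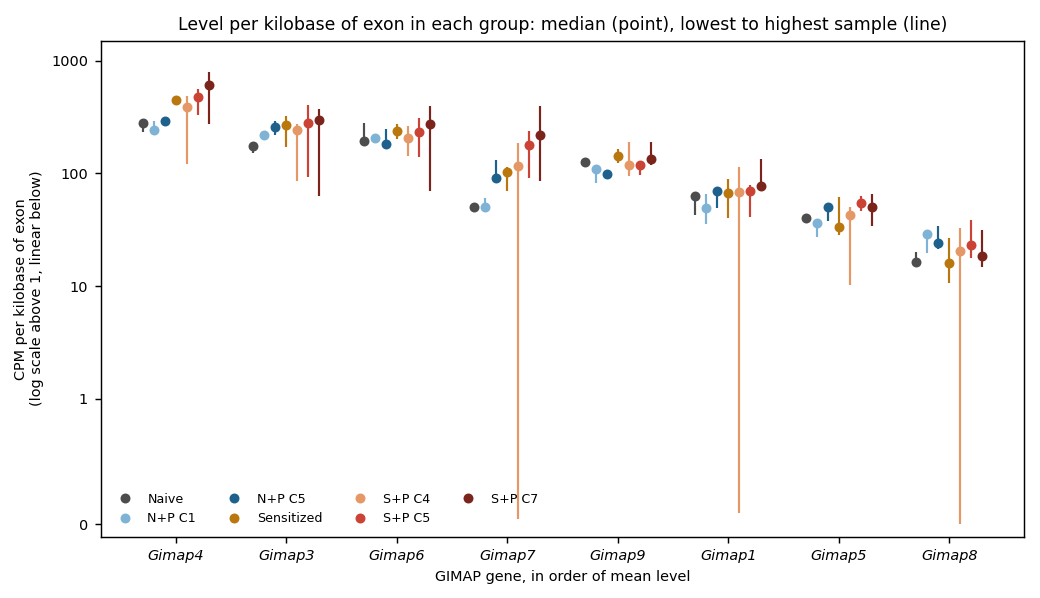
Level of each GIMAP gene per kilobase of exon (vertical axis, CPM per kb, logarithmic above 1 and linear below) in the 7 groups, with points at group medians and lines from the lowest to the highest sample. *Gimap4* is the highest and *Gimap8* the lowest gene, and the long lines of *Gimap7*, *Gimap1* and *Gimap8* in S+P C4 come from the samples of few detected genes.

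*Gimap7* had the widest range of group means (2.32 on the log2 scale) without the 3 samples of few detected genes, while with all samples *Gimap1* and *Gimap8* (both 2.16) exceeded it (2.02). It encodes a GTPase that pairs with other GIMAP proteins and speeds their GTP hydrolysis. Its levels were 113, 116 and 125 CPM in Naive samples and 105, 116 and 140 CPM in N+P C1, so that these groups overlapped. In N+P C5 its levels were 191, 210 and 303 CPM, and in Sensitized samples 162, 226, 252 and 266 CPM. Every N+P C5 and every Sensitized sample thus lay above every Naive sample. Among the memory subsets after pregnancy, *Gimap7* ran from 0.0992 CPM (a single count, in replicate 3) through a median of 269.5 to 430 CPM in S+P C4, and from 210.0 through 418 to 551 CPM in S+P C5. In S+P C7 the samples had 201, 395, 511, 660.0 and 925 CPM, where the 201 belonged to replicate 3. Apart from the samples of few detected genes, every memory sample, before or after pregnancy, exceeded every Naive and N+P C1 sample. *Gimap7* was singled out after its values were seen, and the share of tested genes separated in this way was not computed. The order of the group medians was N+P C1, Naive, N+P C5, Sensitized and then the S+P subsets C4, C5 and C7, and every pair of neighbours in that order overlapped except Naive and N+P C5.

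*Gimap4*, whose product is expressed as T cells mature and has been tied to their death by apoptosis, was the highest member per kilobase. It had 522, 628 and 636 CPM in Naive samples, 495, 542 and 662 CPM in N+P C1 and 644, 661 and 719 CPM in N+P C5. In Sensitized samples it had 938.5, 1003, 1022 and 1091 CPM, all above every sample from mice that had not been grafted. For that pooling of groups too, the share of tested genes was not computed. S+P C4 ran from 273 CPM (replicate 3) through a median of 871 to 1093 CPM, and S+P C5 from 737 through 1064.5 to 1259 CPM. S+P C7 had 616 (replicate 3), 1162, 1362, 1372 and 1779 CPM, and its other 4 samples lay above all Sensitized samples.

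**Figure D2:**
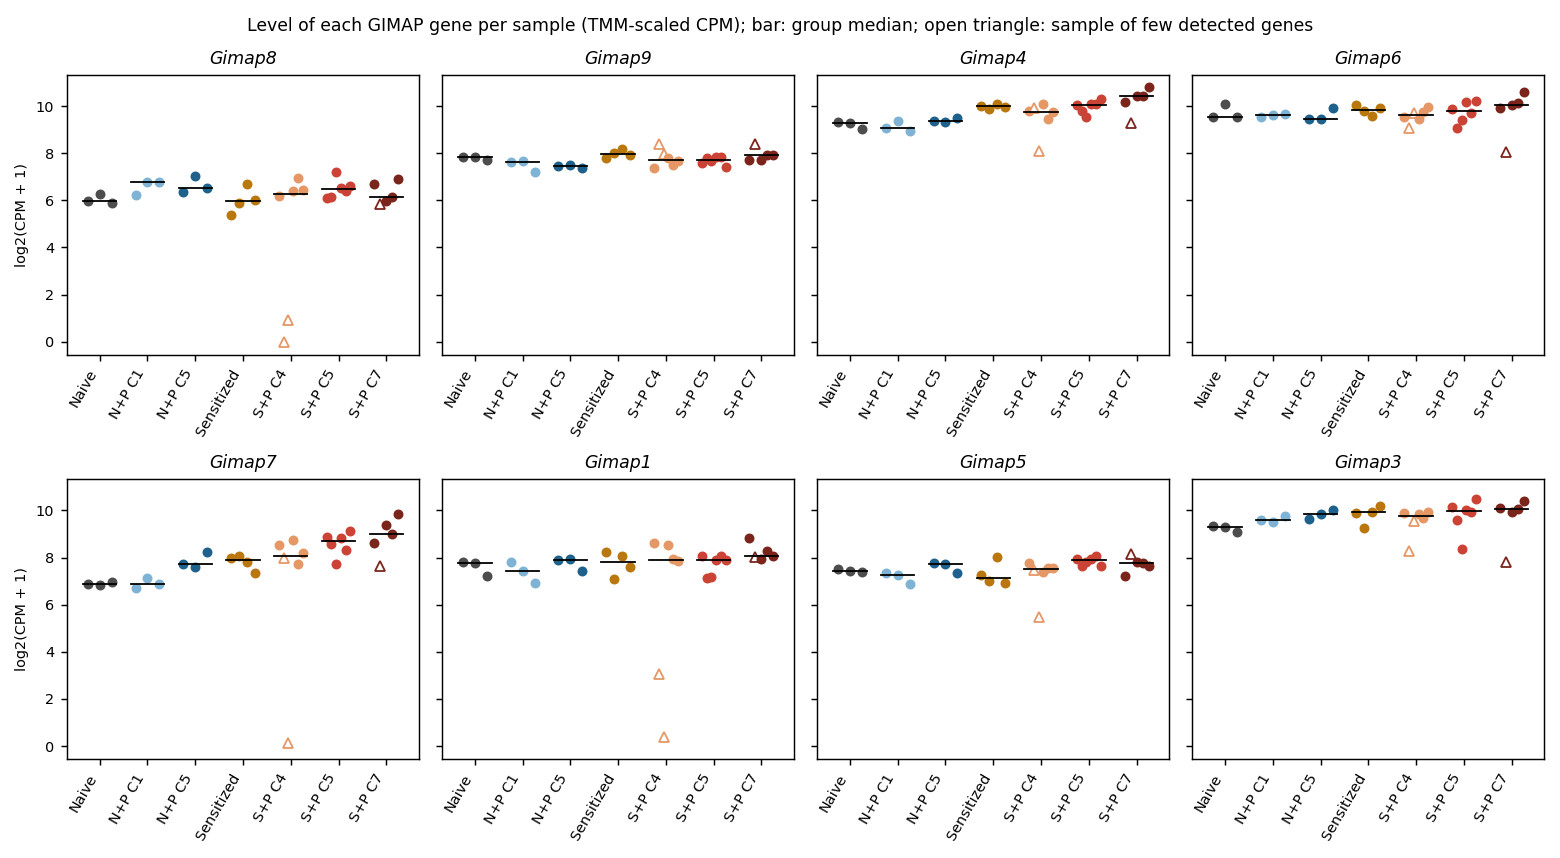
Level of each GIMAP gene in each of the 30 samples, as log2(CPM + 1) on a shared vertical axis, by group, with bars at group medians and open triangles for the 3 samples of few detected genes. *Gimap7* and *Gimap4* have higher medians in Sensitized and S+P C7 than in Naive, while *Gimap9* has the smallest spread within groups.

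Skin sensitization was the first comparison, Sensitized against Naive. 2 members, *Gimap4* and *Gimap7*, had no overlap between the groups, both higher in Sensitized, beside 3.78% of all tested genes that were higher without overlap. *Gimap4* was higher by 0.77 (log2, SE 0.32) with an unadjusted p = 0.0243 (3.85% of tested genes were higher at an unadjusted p under 0.05), and it did not pass adjustment (edgeR quasi-likelihood test with Benjamini-Hochberg adjustment, adjusted p = 0.626). *Gimap7*, singled out after its values were seen, was higher by 0.94 (log2, SE 0.82), less certain than *Gimap4* because its spread was wider. No member was called at an adjusted p under 0.1 with an absolute log2 fold change above 0.9, where 0.153% of tested genes were called. DESeq2 on the same samples called none of the 8 in any of the 12 contrasts examined, beside 626 to 1104 of all genes per contrast. Its unadjusted p was under 0.05 for *Gimap4* here and for *Gimap9* in S+P C4 against N+P C1. In edgeR with all samples, *Gimap4* here was the 1 member and contrast with an unadjusted p under 0.05. The 8 fitted log2 fold changes ran from -0.05 (*Gimap5*) to 0.94, with a median of 0.20 against 0.04 over all tested genes, and 7 were above 0. NK cell markers moved the same way, at 0 to 16.95 CPM in Naive samples and 68.7 to 142 CPM in Sensitized samples and their part in these differences was not tested.

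Without the 3 samples of few detected genes, none of which is in these groups but which share the estimate of spread, the same differences were estimated more tightly. *Gimap4* was then higher by 0.76 (log2, SE 0.19), with an edgeR adjusted p = 0.0608 that passed while its fold change stayed under the minimum. *Gimap7* was higher by 0.93 (log2, SE 0.30, edgeR adjusted p = 0.280) and *Gimap3* by 0.60, with an unadjusted p = 0.0399. The share of tested genes called was 0.782% in that fit, and no GIMAP gene was among them. The share at an unadjusted p under 0.05 was not computed without the 3 samples, so unadjusted p-values there and below stand without it.

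Pregnancy in naive mice was read from N+P C5 against Naive. The Naive label names no PD1 or CD73 gate, so the PD1+CD73+ gate and pregnancy cannot be told apart in this contrast. *Gimap3*, *Gimap4*, *Gimap7* and *Gimap8* were higher and *Gimap9* lower without overlap between the 3 samples of each group, beside 7.4% of tested genes higher and 5.48% lower without overlap. *Gimap3*, the close relative of *Gimap5*, had 544, 624 and 648 CPM in Naive samples and 791, 921 and 1039 CPM in N+P C5. *Gimap8*, the member with 3 GTP-binding domains, had 57.7, 62.4 and 75.6 CPM in Naive samples and 80.7, 91.2 and 130.1 CPM in N+P C5. *Gimap9* was the member that ran the other way, with 210.4, 224.9 and 225.5 CPM in Naive samples and 163.5, 174 and 179 CPM in N+P C5. None of these passed the edgeR test, where 0.0407% of tested genes were called. The fitted log2 fold changes ran from -0.36 (*Gimap9*) to 0.99 (*Gimap7*, SE 0.87), with a median of 0.19 against 0.00 over all tested genes. Without the 3 samples of few detected genes, *Gimap7* was higher by 1.02 (log2, SE 0.31, edgeR adjusted p = 0.261). That fit called no member, beside 0.619% of tested genes.

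In the PD1- subset of the same mice, N+P C1 against Naive, *Gimap3* was higher and *Gimap5* and *Gimap9* lower without overlap, beside 4.22% and 3.08% of tested genes. edgeR called 0 of the 8 members and 0 of the 19659 genes, and no member had an unadjusted p under 0.05. The 8 log2 fold changes ran from -0.28 (*Gimap9*) to 0.59 (*Gimap8*), with a median of -0.10 against 0.00 over all tested genes. Within these mice, *Gimap7* alone separated N+P C5 from N+P C1, with no overlap and a log2 difference of 0.97 (SE 0.87), beside 5.48% of tested genes that were higher without overlap. edgeR called 0 of 8 members and 0.00509% of tested genes between the 2 subsets. Without the 3 samples of few detected genes, the *Gimap7* difference was 0.98 (log2, SE 0.31, edgeR adjusted p = 0.670). That fit called no member, beside 0.0767% of tested genes. *Gimap7* thus had the larger level in the PD1+CD73+ subset in every sample, and the difference did not pass the test.

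Pregnancy in sensitized mice was read by setting each of the S+P subsets against Sensitized. The Sensitized label names no gate either, so the gate of each S+P subset and pregnancy cannot be told apart here. With all samples no member separated any of these groups from Sensitized, beside 0.0916%, 1.45% and 0.778% of tested genes that were higher without overlap. edgeR called no member in any of the 3, while it called 0.00509%, 0.0712% and 0.0305% of tested genes. The largest value in each was that of *Gimap7*, at 0.19 (log2, SE 0.68) in S+P C4, 0.81 (SE 0.69) in S+P C5 and 1.25 (SE 0.73) in S+P C7. Medians of the 8 members were -0.15, 0.02 and 0.31, against -0.14, -0.01 and 0.00 over all tested genes. The S+P C4 values rested on replicates 2 and 3. When the samples of few detected genes were left out, the S+P C4 median was 0.11, with 5 of 8 members above 0 in place of 1, and *Gimap7* was at 0.55.

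The S+P C7 difference depended on replicate 3 of that group and on S+P C4 replicates 2 and 3. Without these 3 samples, all 4 S+P C7 samples (395 to 925 CPM) lay above all 4 Sensitized samples (162 to 266 CPM) for *Gimap7*, and likewise for *Gimap4*, beside 2.7% of tested genes. *Gimap7* was then higher by 1.46 (log2, SE 0.27) and passed both thresholds (edgeR, adjusted p = 0.0151), as did 0.348% of tested genes. *Gimap4* was higher by 0.49 (log2, SE 0.17, edgeR adjusted p = 0.407). In S+P C5 *Gimap7* was higher by 0.83 (log2, SE 0.25, edgeR adjusted p = 0.164) and *Gimap5*, the member whose loss depletes T cells, by 0.49, with an unadjusted p = 0.0209. In S+P C4 only *Gimap9* reached an unadjusted p under 0.05 (0.0338), and it was lower by 0.37 on the log2 scale (-0.37). With all samples, 5.26% of tested genes were higher in S+P C5 and 8.55% lower in S+P C4 at that threshold.

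**Figure D3:**
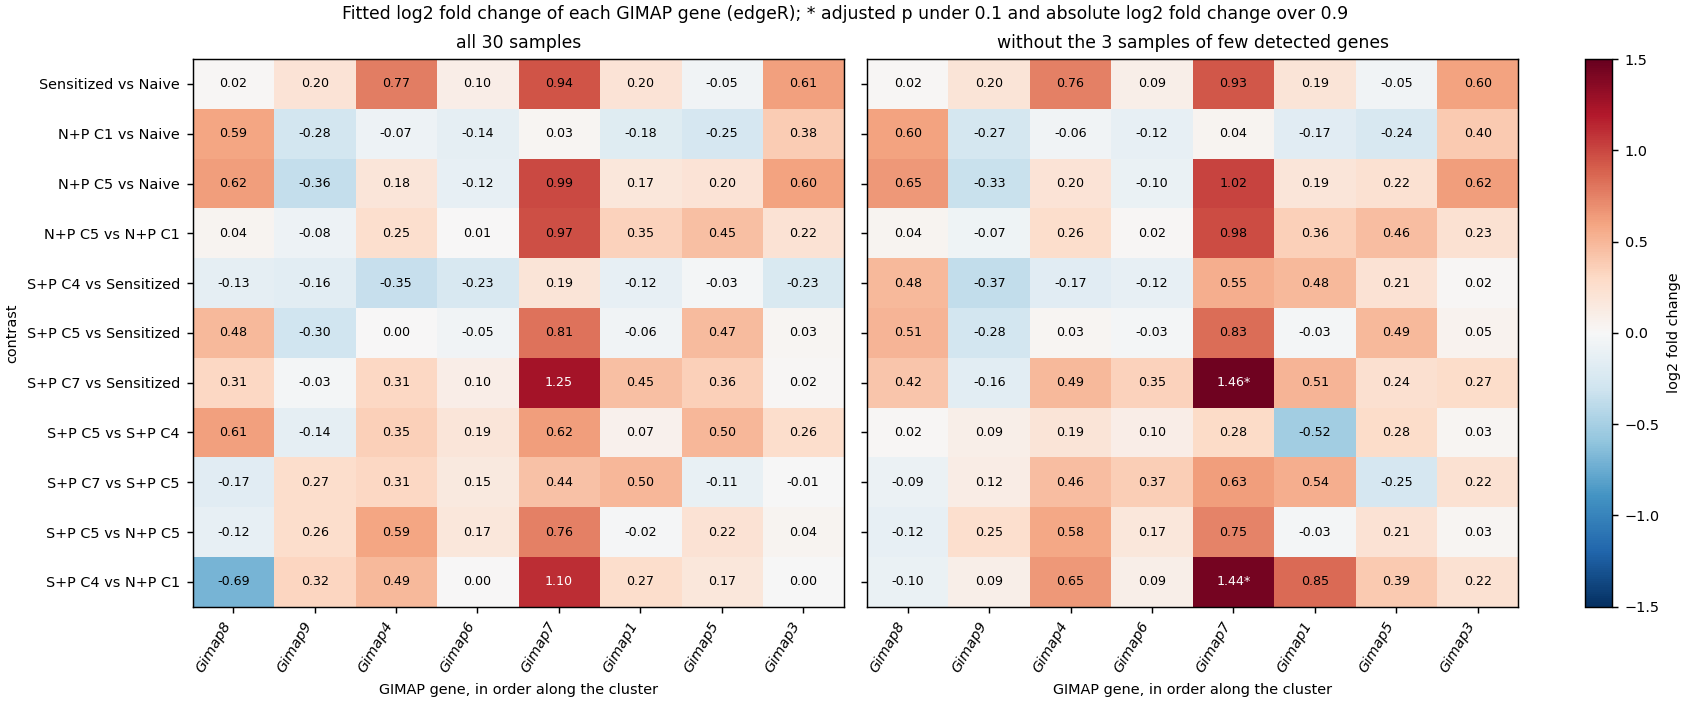
Fitted log2 fold change (edgeR) of each GIMAP gene, in order along the cluster (horizontal), in 11 contrasts (vertical), with all 30 samples at left and without the 3 samples of few detected genes at right. The largest value of each panel is in the *Gimap7* column, and asterisks mark its 2 calls, 1.46 in S+P C7 vs Sensitized and 1.44 in S+P C4 vs N+P C1, both at right.

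Among the post-partum memory subsets, PD1 and CD73 status went with small differences. S+P C5 against S+P C4 had member values from -0.14 (*Gimap9*) to 0.62 (*Gimap7*) on the log2 scale, with a median of 0.31 against 0.11 over all tested genes. These were -0.52 (*Gimap1*) to 0.28 (*Gimap7*) without the 3 samples, with a median of 0.095 against 0.00. With all samples edgeR called 0 of 8 members and 0.0305% of tested genes. S+P C7 against S+P C5 had values from -0.17 (*Gimap8*) to 0.50 (*Gimap1*), and edgeR called 0 of 8 members and 0 of 19659 genes. Without the 3 samples, *Gimap1* was higher in S+P C7 than in S+P C5 by 0.54 and lower in S+P C5 than in S+P C4 by 0.52 (log2 -0.52), with unadjusted p = 0.0396 and p = 0.0488 in edgeR, and neither passed adjustment. The difference between S+P C5 and S+P C4 had the other sign, 0.07, with all samples. In the fit without the 3 samples, *Gimap4* (0.46) and *Gimap7* (0.63) were higher in S+P C7 than in S+P C5 with unadjusted p = 0.0055 and p = 0.0154 in edgeR, and adjusted p = 0.277 for both. With all samples, 10.1% of tested genes were higher in S+P C7 than in S+P C5 at an unadjusted p under 0.05. At the same threshold 5.71% were lower in S+P C5 than in S+P C4.

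Memory and naive cells were compared within the PD1+CD73+ gate and within the PD1- gate. In S+P C5 against N+P C5, *Gimap4* had no overlap, with 737 to 1259 CPM against 644 to 719 CPM, beside 0.966% of tested genes. Its log2 difference was 0.59 (SE 0.30, edgeR adjusted p = 0.854), and edgeR called 0 of 8 members and 0 of 19659 genes. Without the 3 samples of few detected genes, the *Gimap4* difference was 0.58 (log2, SE 0.17, edgeR adjusted p = 0.547). That fit called no member, beside 0.0818% of tested genes. In S+P C4 against N+P C1 the member values ran from -0.69 (*Gimap8*) to 1.103 (*Gimap7*, SE 0.78), where *Gimap8* went to -0.10 without the 3 samples, and edgeR called 0 of 8 members and 0.061% of tested genes. Without the 3 samples of few detected genes, *Gimap1*, *Gimap4*, *Gimap5* and *Gimap7* were higher without overlap, beside 3.99% of tested genes. *Gimap7* then rose by 1.44 (log2, SE 0.30, edgeR adjusted p = 0.0217) and was the 1 member called, beside 0.706% of tested genes. *Gimap4* was higher by 0.65 (log2, SE 0.19, edgeR adjusted p = 0.166). The post-partum effect in memory cells minus that in naive cells, (S+P C5 vs Sensitized) minus (N+P C5 vs Naive), ran from -0.57 (*Gimap3*) to 0.27 (*Gimap5*) over the members. edgeR called 0 of 8 for it, none had an unadjusted p under 0.05, and 0.0254% of tested genes were called. For *Gimap7* this interaction was -0.18 (log2, SE 1.09), and -0.18 (SE 0.40) without the 3 samples of few detected genes. Both parts of the interaction carry the PD1+CD73+ gate together with pregnancy.

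The tool also mattered for *Gimap7*. DESeq2 without the 3 samples of few detected genes, a combination chosen after seeing the data, called *Gimap7* higher, as the 1 member, in 5 contrasts. These were Sensitized vs Naive (7.05% of tested genes called), N+P C5 vs Naive (6.59%), N+P C5 vs N+P C1 (4.86%), S+P C7 vs Sensitized (5.09%) and S+P C4 vs N+P C1 (7.34%). With each technical library as a separate sample, which are not independent, edgeR called it in S+P C7 vs Sensitized, beside 4.66% of tested genes. Each background share was above the 0.153% or less of edgeR with all samples.

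Without the 3 samples of few detected genes, the range of group means was 0.55 to 0.89 (log2) for the remaining 6 members, below that of *Gimap4* (1.32). *Gimap6* had group medians from 705.9 CPM in N+P C5 to 1043 CPM in S+P C7, with samples of all groups overlapping. Without S+P C7 replicate 3 (265.9 CPM), its S+P C7 samples (952.8 to 1527 CPM) lay above those of N+P C1 (734.8 to 806.9 CPM). That pair of groups was not among the contrasts, and the share of tested genes separated between them was not computed. *Gimap9* was the steadiest, with a within-group SD of 0.24 (log2) and group medians from 173.7 to 251.9 CPM. *Gimap5* had group medians from 140.85 CPM in Sensitized to 233.6 CPM in S+P C5, and a Sensitized sample at 261 CPM overlapped with S+P C5. *Gimap1* had group medians from 169.8 CPM in N+P C1 to 265 CPM in S+P C7. *Gimap8* had its highest group median, 109.6 CPM, in N+P C1 and its lowest, 61.3 CPM, in Sensitized. The order of groups therefore differed from member to member.

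The lowest values of several members came from 2 samples of S+P C4. *Gimap8* had no count in replicate 2, which allows a level of up to 0.156 CPM at 3 counts, and 9 counts in replicate 3. *Gimap1* had 3 counts in replicate 3 and 7.39 CPM in replicate 2, and *Gimap7* had 1 count in replicate 3 but 248 CPM in replicate 2. *Gimap9* stood at 337.5 and 252.5 CPM in those samples above the other 4 samples of the group. *Gimap4* (273 CPM) and *Gimap5* (43.4 CPM) were also at their lowest of the group in replicate 3, as were *Gimap3* (309 CPM) and *Gimap6* (543 CPM) in replicate 2. Several members were thus low in each of these samples, but not all members together. With 200 cells per library, fewer cells holding a transcript and less RNA per cell cannot be told apart, and PCR reads without molecular identifiers make counting limits cover counting error only.

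The spread between replicates was compared with that of other genes. The median within-group SD of log2(CPM + 1) was 0.57 over the 8 members, against 1.06 over all tested genes and 1.24 over the 3406 tested genes with a mean of at least 50 CPM. Without the 3 samples these became 0.35, 0.72 and 0.48. Paired technical libraries, of which 23 mice and subsets had 2, differed by a median of 0.21 (*Gimap6*) to 0.55 (*Gimap8*) on the log2 scale, against 0.46 over all tested genes. The summed level of the 8 genes averaged 2827 ± 309 CPM (SD, n = 3) in Naive samples, 2850 ± 104 (n = 3) in N+P C1, 3300 ± 269.8 (n = 3) in N+P C5 and 3792 ± 342 (n = 4) in Sensitized. It averaged 3274 ± 749 CPM (n = 6) in S+P C4, 3988 ± 907 (n = 6) in S+P C5 and 4565 ± 1491 (n = 5) in S+P C7. S+P C4 was at 3728 ± 285 (n = 4) and S+P C7 at 5147 ± 839.9 CPM (n = 4) when the 3 samples were left out.

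Levels of the members were compared with each other across samples. As a description over the 30 samples, Pearson's r of log2(CPM + 1) ranged from -0.51 (*Gimap8* and *Gimap9*) to 0.88 (*Gimap8* and *Gimap1*) over the 28 pairs, with a median of 0.32. The *Gimap8* and *Gimap1* value rested on the 3 samples of few detected genes, and over the other 27 it was -0.05. Over those 27 samples the closest pair was *Gimap4* and *Gimap7*, with r = 0.89, and r stayed at 0.77 after each group's mean was subtracted. The median over the 28 pairs was 0.23, and 0.10 after subtraction. The samples share normalization and fall into groups, so these values describe the samples and carry no test.

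**Figure D4:**
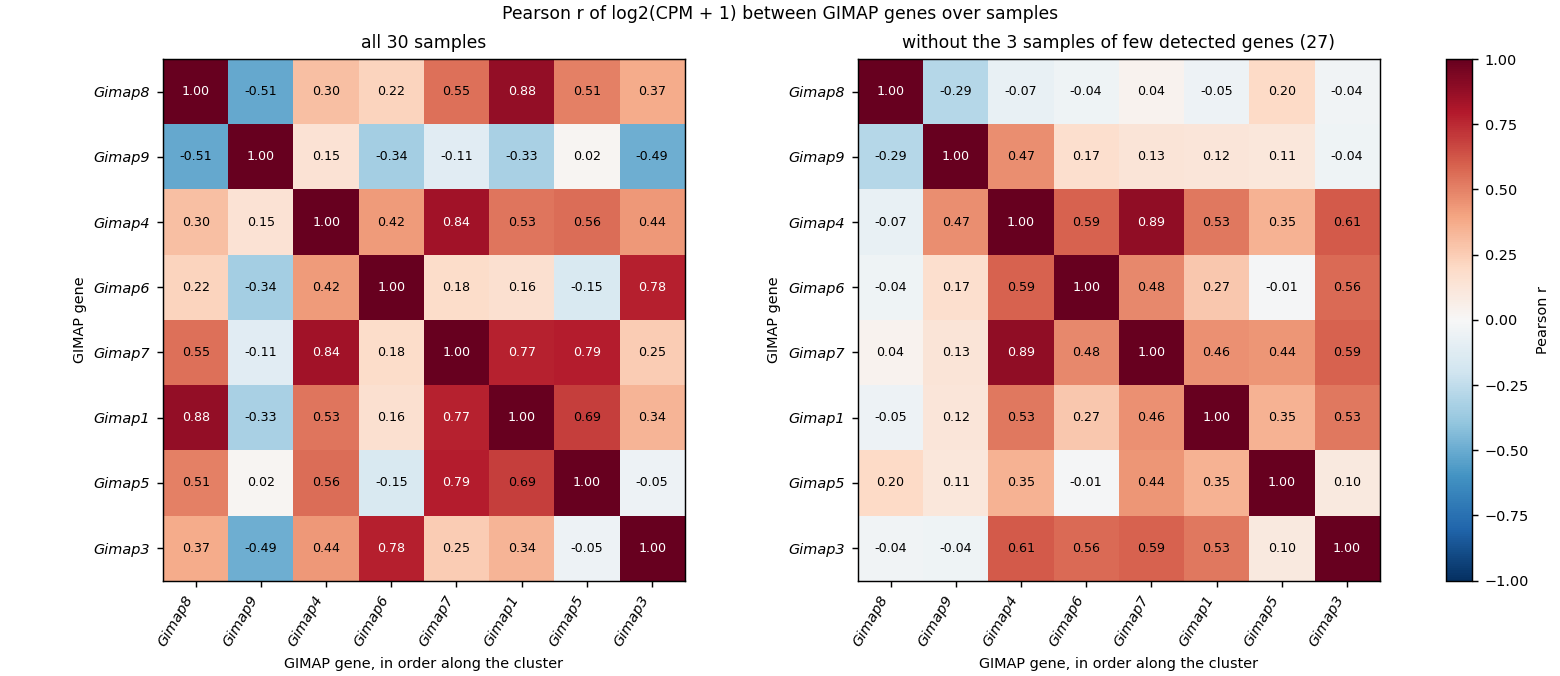
Pearson r of log2(CPM + 1) between GIMAP genes, both axes in order along the cluster, over all 30 samples (left) and over the 27 without the samples of few detected genes (right). *Gimap4* and *Gimap7* (0.89) are the closest pair at right, while *Gimap8* and *Gimap1* go from 0.88 to -0.05.

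**Figure D5:**
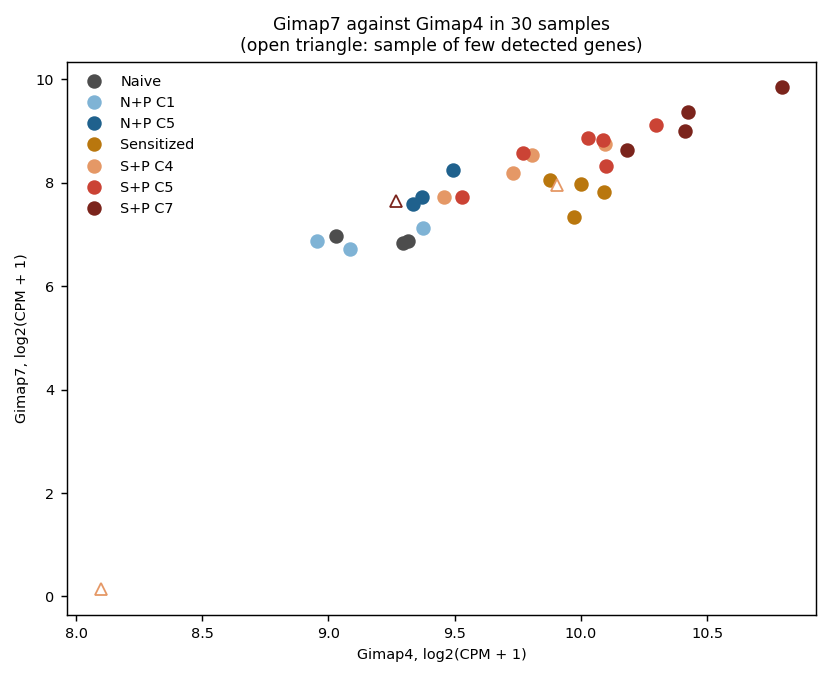
*Gimap7* (vertical) against *Gimap4* (horizontal), both as log2(CPM + 1), with 1 point per sample coloured by group and open triangles for samples of few detected genes. Naive and N+P C1 samples sit at lower left, 4 of the 5 S+P C7 samples at upper right, and S+P C4 replicate 3 lies at the bottom with 1 count of *Gimap7*.

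Because *Gimap4* and *Gimap7* had the highest r of any pair of members over the 27 samples, their promoters are printed (RefSeq, 250 bases before to 50 after the start of each gene). All 8 members had an entry in that table, *Gimap8* with 2 starts, and each sequence matched GRCm39 at 1 place. Motifs for 6 factor families were searched on both strands, namely CCGGAA (ETS), TGTGGT (RUNX), GTAAACA (FOXO), CTTTGA (TCF/LEF), TGANTCA (AP-1) and GGAAAA (NFAT). Capitals mark the matches. In both promoters the first is TGTGGT, read on the minus strand, and the second is CTTTGA.

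*Gimap4* promoter (GRCm39 chr6:48661262-48661561, plus strand): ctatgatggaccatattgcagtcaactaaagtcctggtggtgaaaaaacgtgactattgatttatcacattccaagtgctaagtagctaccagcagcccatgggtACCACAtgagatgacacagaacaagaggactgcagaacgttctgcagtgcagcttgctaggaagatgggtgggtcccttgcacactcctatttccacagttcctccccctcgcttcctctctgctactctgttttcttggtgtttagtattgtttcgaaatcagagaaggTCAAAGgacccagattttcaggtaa
*Gimap7* promoter (GRCm39 chr6:48695305-48695604, plus strand): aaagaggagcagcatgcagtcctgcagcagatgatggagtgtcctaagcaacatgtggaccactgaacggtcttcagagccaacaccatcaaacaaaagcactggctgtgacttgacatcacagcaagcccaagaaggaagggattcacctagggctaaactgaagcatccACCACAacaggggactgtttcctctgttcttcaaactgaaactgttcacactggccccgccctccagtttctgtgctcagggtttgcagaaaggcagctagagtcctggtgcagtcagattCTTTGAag

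TGTGGT stood in 3 of the 9 member promoters (*Gimap1*, *Gimap4*, *Gimap7*), and in 16.8% of all 32851 promoters of this length. CTTTGA stood in those of *Gimap4* and *Gimap7* only, against 16.0% of all. GGAAAA was found in *Gimap1*, *Gimap3* and *Gimap6* (23.4% of all) and GTAAACA in *Gimap3* (3.6% of all). CCGGAA (14.9% of all) and TGANTCA (7.8% of all) had no match in these windows. A match is a run of letters and not a shown binding site.

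The genes whose levels were most like the family were sought among 8256 other genes with a mean of at least 10 CPM, by Pearson's r with the mean standardized level of the 8 members over the 30 samples. They were *Mapre2* (r = 0.88), *Kpna2* (0.87), *Coro1b* (0.86), *Ccser2* (0.86) and *Ywhaz* (0.85), and the least like were *Ndufa6* (-0.87), *Rps16-ps2* (-0.87) and *Rai1* (-0.86). These rankings rested on the samples of few detected genes, since without the 3 samples the 5 most like were *Ndfip1* (0.84), *Ctsb* (0.83), *Ncf4* (0.80), *Cd68* (0.79) and *Sh2d2a* (0.78). Of the 41 other genes in the table within 250 kb of the cluster, *Gimap1os* (50.6 CPM) and *Krba1* (14.3 CPM) had a mean of at least 10 CPM, and none was called in any contrast. Every GIMAP gene had a higher mean than either of them.

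Lists of quiescence and BCL2 family genes, around the known work of GIMAP proteins, were followed beside them. Of 14 quiescence genes, edgeR called *Satb1* and *Il7r* lower in S+P C5 against Sensitized (log2 -2.74 and -2.28, adjusted p = 0.0343 and 0.0447), beside 0.0712% of tested genes called. It also called both in S+P C7 against Sensitized (-2.81 and -3.55, adjusted p = 0.0692 and 0.00108), beside 0.0305%. *Il7r* encodes the interleukin-7 receptor chain that keeps resting T cells alive. *Gimap7* had log2 values of 0.81 and 1.25 in the same contrasts, neither of them called, and comparisons with Sensitized share its 4 samples. *Satb1* was also called lower in S+P C5 than in S+P C4 (-3.53, edgeR adjusted p = 0.00185), beside 0.0305% of tested genes called. None of the 14 was called in the other contrasts.

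When the 3 samples of few detected genes were left out, the quiescence genes called by edgeR were all lower and more numerous. They were 5 of 14 in S+P C5 and 4 of 14 in S+P C7 against Sensitized, where 1.02% and 0.348% of tested genes were called. S+P C4 against N+P C1 had 6 of 14 (0.706% of tested genes), S+P C5 against N+P C5 had 4 (0.0818%), and Sensitized against Naive had 2, *Ccr7* and *Lef1* (0.782%). S+P C4 against Sensitized had 1, *Il7r* (0.0205%), and S+P C5 against S+P C4 had 1, *Satb1* (0.199%).

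Of 10 BCL2 family genes, with which some GIMAP proteins are known to interact, edgeR called 0 in any contrast with all samples. Between 0 and 2 of them per contrast were lower at an unadjusted p under 0.05 and none higher, where 1.39% to 8.55% of tested genes were lower. The lower ones against Sensitized were *Bcl2*, which restrains mitochondrial cell death, and *Bbc3*, which promotes it. *Bcl2* had a log2 value of -1.32 in S+P C5, and its value in S+P C7 was -1.60 (edgeR adjusted p = 0.276 and 0.473). *Bbc3* ran from 7.20 to 31.1 CPM in Sensitized samples, with at most 0.896 CPM in S+P C5 and 1.07 CPM in S+P C7, and had the same adjusted p values as *Bcl2*. In the fit without the 3 samples, edgeR called *Bcl2* lower in C5 and C7 of the S+P mice against Sensitized and in S+P C4 against N+P C1. Of tested genes, 1.02%, 0.348% and 0.706% were called in these contrasts. That fit also called *Bbc3* lower in S+P C5 against Sensitized.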

How the data were processed

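The authors trimmed reads with cutadapt 3.4, aligned them to GRCm39 with STAR 2.6.1b, dropped multi-mapping reads and counted genes with featureCounts 2.0.1, and deposited raw read counts per gene for 56 SmartSeq2 libraries (150-base paired ends). The annotation release and strand setting are not given in the sources used here. Counts of the technical libraries of a replicate and subset were summed. Genes were filtered with filterByExpr (min.count 10), scaled by TMM and tested in 1 edgeR 4.0.16 quasi-likelihood fit over all 7 groups (two-sided, Benjamini-Hochberg adjustment, R 4.3.3), with DESeq2 1.42.0 as an alternative. Genes were called where the log2 fold change exceeded 0.9 in size with adjusted p below 0.1. Levels are TMM-scaled CPM, and correlations used log2(CPM + 1). All 8 members were named, and *Gimap7* was given with its log2 value, mostly with SE, also in contrasts where its p missed the threshold. Sequences came from GRCm39 with GENCODE and from a RefSeq promoter table (GRCm38.p6), using Biopython 1.88. The code was tested on simulated counts. The rule for the members uses names only, but it and the gene lists were chosen with earlier results of these data known. Labels do not say whether replicates were separate mice in each case, so p-values measure the spread between these samples. Alternatives covered the tool, scaling, filter, thresholds, technical and duplicated libraries, sparse samples, single replicates and a replicate block. A further gene list and a marker gene are not reported here.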

Additional observations from a re-analysis of the deposited data

Results flagged for a closer look

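Of the 32 sets of a GIMAP gene in a group of 4 to 6 samples, 3 held a sample far from the others by Dixon's test at the 95% level, where chance gives about 1 in 20. *Gimap3* in S+P C4 replicate 2 was at 308.6 CPM, and the other samples of the group were between 741.7 and 985.1 CPM. *Gimap5* in S+P C4 replicate 3 was at 43.37 CPM, with the others between 166.7 and 214.8 CPM. *Gimap9* in S+P C7 replicate 3 was high, at 335.0 CPM, with the others between 209.4 and 244.8 CPM. All 3 samples were those of few detected genes (8002, 7436 and 7879), and the part of that in these levels was not tested.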

How the results depend on the processing

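The count of GIMAP genes called was 0 of 8 in each of the 12 contrasts, and stayed 0 in 129 of 137 recalculations with other settings and in all 111 that left out 1 replicate (lowest 0, highest 0). It became 1, each time *Gimap7*, in the other 8. With technical libraries as separate samples, which are not independent, this was S+P C7 vs Sensitized (1). Without the 3 samples of few detected genes it was S+P C7 vs Sensitized (1) and S+P C4 vs N+P C1 (1). With DESeq2 without these samples, chosen after seeing the data, it was Sensitized vs Naive (1), N+P C5 vs Naive (1), N+P C5 vs N+P C1 (1), S+P C7 vs Sensitized (1) and S+P C4 vs N+P C1 (1), beside 4.86% to 7.34% of tested genes. Of 96 member values (8 genes in 12 contrasts), 8 changed sign without the 3 samples, none of them called in either fit, and 4 of these were in S+P C4 vs Sensitized. The replicate number as a replicate block, in fits within N+P and within S+P mice, also gave 0 calls, with and without the 3 samples. Same-numbered samples deviated together weakly (mean r 0.047 in N+P and 0.132 in S+P, lowest 0.017), and the labels do not say that a number marks a mouse, so the pairing is not established. Scaling by plain library size shifted the median of all genes by -0.178 to 0.239 (log2) between contrasts, and RLE by -0.029 to 0.064. With 3 samples in several groups and 200 cells per library, the spread of *Gimap1* and *Gimap8* was set largely by S+P C4 replicates 2 and 3. That of *Gimap7* was set largely by S+P C4 replicate 3.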
